A study of Mus musculus with 11 samples.

Results

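The genes that encode the proteins of the cytosolic ribosome were followed in open chromatin of mouse CD8 T cells. Protein-coding genes of the RefSeq table of mm10 were taken when their symbol began with Rpl or Rps followed by a digit, a, p0, p1 or p2, without the Rps6k kinases and without symbols ending in l or l1. This gave 83 of 21631 genes. Of these, 77 were canonical ribosomal protein genes, 46 of the large and 31 of the small subunit. The other 6 met the symbol rule but were copies (Rpl31-ps12, Rpl34-ps1, Rpl37rt, Rps23rg1, Rps27rt) or encode a protein that binds a ribosomal protein (Rps19bp1), and they are named apart throughout. Fau, which encodes a ribosomal protein fused to a ubiquitin-like domain, does not match the rule by symbol.

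The study profiled 11 libraries of spleen CD8 T cells by ATAC-seq, which marks open DNA by the cuts of a transposase, and deposited a peak list for each. All 6 groups carry Tcf7-YFP, a fluorescent reporter of Tcf7, whose product is a transcription factor of naive and memory T cells. Splenocytes sorted as YFP-positive and CD62L-positive gave 1 naive library when they lacked CD44 and 1 antigen-experienced library when they had it. Cells activated ex vivo for 3 days gave 1 effector library. The day 9 libraries come from cells sorted by reporter level on day 3, put back in culture and sorted again. Of these, 2 stayed high (high_to_high), 3 stayed low (low_to_low) and 3 went from low to high (low_to_high). Strain, age and further alleles are not given in the labels. Nor do the labels say that replicates were separate animals or cultures, so a p-value may reflect only variation between preparations.

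Every cell needs ribosomes, and each ribosomal protein is used once per particle apart from the stalk, so the genes are read at high and balanced rates from many scattered loci. Their promoters are short and open, mostly without a TATA box. The mRNAs typically begin with a cytosine inside a run of pyrimidines, the terminal oligopyrimidine tract, through which mTOR signalling sets their translation. T cells raise ribosome production strongly when they are activated, and mTOR and MYC take part in that rise.

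RefSeq promoter sequences of GRCm38.p6, the mm10 build, were matched for 57 of the 77 canonical genes. The sequences of 6 of them are shown first because the results turn on their promoters. Rpl13a had the highest mean value, Rps4x the lowest, and Rpl7a the longest pyrimidine run near its start. Rps10 and Rpl4 had the lowest p-values at day 9, and Rpl31 varied most across libraries. Each runs 5′ to 3′ on the coding strand from 90 bases before the annotated start to 10 bases into the transcript. Capitals mark the longest run of C and T from 30 bases before the start to 10 after it, a window chosen after the sequences were seen. The windows are chr7:45128736-45128835 (minus strand) for Rpl13a, chr2:26910717-26910816 (plus) for Rpl7a, chr17:27635235-27635334 (minus) for Rps10, chr9:64173297-64173396 (plus) for Rpl4, chr1:39367761-39367860 (plus) for Rpl31 and chrX:102189382-102189481 (minus) for Rps4x.
Rpl13a: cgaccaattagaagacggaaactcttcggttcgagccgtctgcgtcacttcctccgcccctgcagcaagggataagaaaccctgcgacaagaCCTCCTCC
Rpl7a: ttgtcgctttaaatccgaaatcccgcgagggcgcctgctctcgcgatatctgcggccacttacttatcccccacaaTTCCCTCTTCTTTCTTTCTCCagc
Rps10: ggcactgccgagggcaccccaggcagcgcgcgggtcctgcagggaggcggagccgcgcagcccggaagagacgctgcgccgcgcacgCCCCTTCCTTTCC
Rpl4: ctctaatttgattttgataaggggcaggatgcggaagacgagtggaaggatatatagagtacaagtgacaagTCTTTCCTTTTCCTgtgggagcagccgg
Rpl31: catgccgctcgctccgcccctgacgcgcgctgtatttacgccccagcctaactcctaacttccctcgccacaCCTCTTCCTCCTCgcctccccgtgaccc
Rps4x: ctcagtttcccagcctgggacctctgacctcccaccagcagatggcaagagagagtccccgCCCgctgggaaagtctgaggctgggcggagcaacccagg

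The runs in capitals differ in length. Rpl7a has 21 pyrimidines in a row, Rpl4 has 14, Rpl31 and Rps10 have 13, Rpl13a has 8 and Rps4x has 3. A run of at least 8 pyrimidines lay in that window for 25 of the 57 members (43.9%), against 16.8% of all 21045 promoters in the table and 13.2% of the 7612 promoters under a region called in all 11 libraries. Runs of at least 12 were found in 9 members (15.8%), against 4.04% and 2.9%. Counted only across the start itself, a run of at least 8 was present in 15 members (26.3%), against 3.55% of all promoters. The annotated first base was C in 19 members (33.3%), against 13.9%. A first C followed by at least 4 pyrimidines was found in 12 (21.1%), against 2.23%, so most annotated starts did not show the tract. The RefSeq start is an annotation, and it was an end of the gene's own span for 47 of the 57 members.

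A 10-base palindrome with CGCG at its centre, known from promoters of broadly expressed genes and spelled by the capitals in the next set of sequences, was found in 6 of the 57 promoters. These are Rpl10a, Rpl12, Rpl26, Rps19, Rps28 and Rps6, a share of 10.5% against 0.679% of all promoters of the same 300 bases and 1.56% of those open in all libraries. In 4 of them the palindrome ends before the start. Their 50 bases around it, with the palindrome in capitals, come from chr17:28328514-28328563 (plus) for Rpl10a, chr2:32961638-32961687 (plus) for Rpl12, chr11:68901520-68901569 (plus) for Rpl26 and chr4:86857389-86857438 (minus) for Rps6.
Rpl10a: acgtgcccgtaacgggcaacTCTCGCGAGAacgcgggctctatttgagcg
Rpl12: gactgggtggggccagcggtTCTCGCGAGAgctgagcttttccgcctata
Rpl26: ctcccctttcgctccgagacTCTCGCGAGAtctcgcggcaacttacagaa
Rps6: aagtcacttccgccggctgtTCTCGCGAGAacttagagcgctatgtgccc

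Mean promoter values of the 6 genes with the palindrome had a median of 60.5, against 59.3 for the 50 matched members without it that were called in all libraries. The 7-base CCGGAAG, the core that ETS-family factors recognise, was found on either strand in 23 members (40.4%), against 11.7% of all promoters and 24.3% of open ones. The 22 of these called in every library had a median of 66.2, against 55.3 for the 34 without it. Both groups spanned most of the members' range, 34.5 to 82.2 and 31.2 to 102.3. Of the others searched on both strands, GGGCGG was in 57.9% of members and in 68.7% of open promoters, CCAAT in 31.6% and 42.9%, TATAAA in 8.77% and 5.53%, AAGATGGCG in 5.26% and 4.31%, and the NRF1 consensus palindrome in 3.51% and 2.86%. Each motif was counted by itself, so matches of different motifs may overlap, and a match describes letters in a window and no binding. GC content was 58.0% in members, 56.7% in all promoters and 61.7% in open ones.

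A peak was present at nearly every canonical gene. Peaks within 1 kb of the spans merged into 120 of the 111041 regions of the series, and 80 of the 83 members had at least 1 region. The 3 without any were the copies Rpl31-ps12, Rps23rg1 and Rps27rt. Promoter regions were called for 79 members and in all 11 libraries for 75, of which 73 were canonical. For 4 of these members (Rpl17, Rpl29, Rpl36 and Rpl34-ps1), which are not in the promoter table, the region taken was the nearest to an end of the span and lay 136 to 1448 bp from it. Among genes with a start in the promoter table, 56 of the 57 canonical members (98.2%) had such a promoter, against 39.7% of all 17274 genes. Mitochondrial ribosomal protein genes, a separate set that builds the ribosome of that organelle, had 63 of 69 (91.3%).

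Rpl39, Rpl7 and Rpl8 were among the canonical promoters that missed a library. The Rpl39 promoter, whose protein lines the exit tunnel, read 27.6 to 59.4 in 10 libraries and was not called in high_to_high replicate 2, where a separate peak of 27.7 was called next to it. Rpl7 was missing in low_to_high replicates 1 and 2, where a neighbouring peak read 45.4 and 50.7. In effector cells the Rpl8 region was not called, while it read 31.5 to 65.8 elsewhere. A region that is not called is not known to be closed.

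Most member regions were promoters. A single region was called at 49 members, 2 regions at 23 and 3 or more at 8. Of the 41 regions that were not promoters, 16 were called in 1 library only and 7 in all 11. Those 7 include the starts of Sphk2 beside Rpl18, Snapc5 beside Rpl4 and Zc3h10 beside Rpl41. A second kind is the region inside Rpl22 at chr4:152332934-152333312, with a mean of 13.5. Another gene started under 13 of the members' promoter regions, as Med22 at Rpl7a, Micos13 at Rpl36, Snhg9 at Rps2 and Gm15420 at Rps10. Signal there cannot be told apart between the genes. For Rpl36, which is not in the promoter table, the region taken is the one at the Micos13 start, and a region inside the gene at chr17:56613279-56613553 had a mean of 51.9. Peak centres lay a median of 30 bp upstream of the start for the 56 members measured, with quartiles at -88.8 and 1.75 bp, and 41 of 56 centres were upstream. Centres of all 7765 promoters had a median of -44 bp, and 4925 of them were upstream.

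Levels were high in every library. Values are normalized tag counts: read ends within a peak window of fixed width, scaled to 10 M (mega) read ends per library, so that promoters of different genes are compared over the same number of bases within a library. Over the 73 canonical promoters called in every library, the median was 101.3 in naive and 101.2 in antigen-experienced cells, 38.5 in effector cells, 48.4 and 48.4 in high_to_high, 54.6, 64.5 and 59.7 in low_to_low, and 52.2, 55.4 and 51.4 in low_to_high. Values in the 2 libraries taken straight from spleen were the highest and those in effector cells the lowest. In each library this median lay above that of the 6825 promoter regions called in all 11, by 1.29 to 1.61 times, at the 73.3rd to 82.2nd percentile of those promoters.

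Levels of all regions also differed between libraries, in an order that was similar but not the same. The members' median was 3.61 times the median region in naive, 3.00 times in antigen-experienced and 2.36 times in effector cells, and 2.28 to 2.46 times at day 9. The median of the 23471 regions called in all libraries was 28.1 in naive, 33.7 in antigen-experienced and 16.3 in effector cells and 19.8 to 28.3 at day 9. Tags in peaks made up 15.01, 15.75 and 9.08% of the naive, antigen-experienced and effector libraries, and 9.01 to 12.47% of the day 9 libraries. Depth ran from 20.84 to 59.97 M tags. The naive library had a peak window of 132 bp and high_to_high replicate 2 one of 136 bp, while the other 9 had 172 bp. Promoters of the listed B cell, CD4 or regulatory T cell and erythroid markers in the table (2, 1 and 3 genes) were called in 0 libraries, that of natural killer Klrb1c in naive only, and myeloid Itgam in 10. Of the 5 CD8 T cell markers in the table, Cd3e and Lck were called in all 11 and Cd8a in 2. Cd3g was not called in high_to_high replicate 1, low_to_low replicate 2 and low_to_high replicate 1. The remaining marker was not called in any library.

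**Figure D1:**
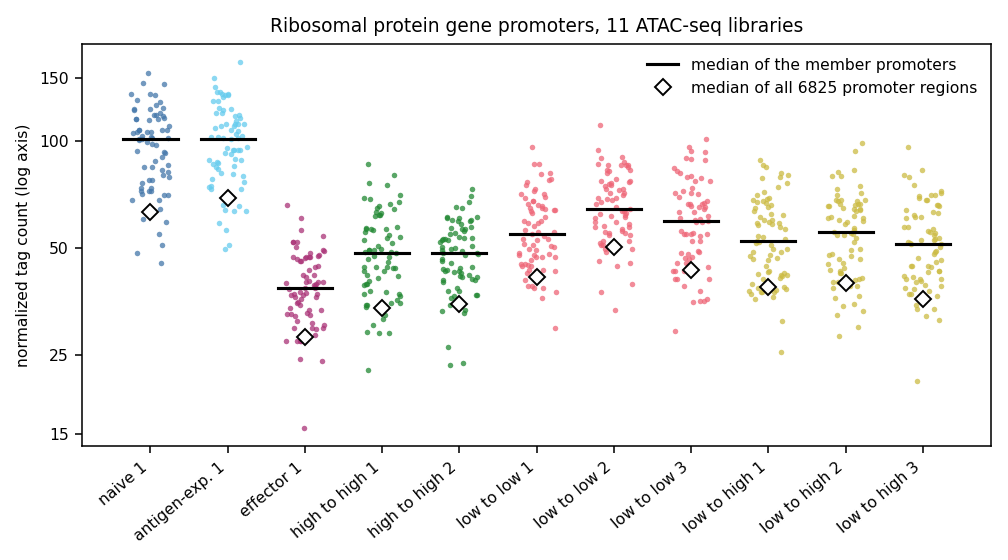
Each point is 1 of 73 canonical ribosomal protein gene promoters; the y axis is the normalized tag count on a log axis and the x axis the 11 libraries, coloured by group. Black bars are member medians (38.5 in effector to 101.3 in naive) and diamonds the medians of all 6825 promoter regions, which lie below the members' median in each library.

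Among the large subunit genes, Rpl13a was highest. It read 154.7 in naive, 166.4 in antigen-experienced and 60.5 in effector cells, 86.2 and 67.5 in high_to_high, 95.8, 110.5 and 101.0 in low_to_low, and 88.1, 98.4 and 96.0 in low_to_high. It was the highest of the 73 promoters in 9 of the 11 libraries. Rpl27 followed with a mean over the libraries of 89.9. At the low end, Rpl6 had a mean of 34.5, with 48.5 in naive, 49.6 in antigen-experienced and 24.3 in effector cells and 26.4 to 39.7 at day 9. The median of means was 58.1 over 43 large subunit genes.

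Stalk and 5S genes sat inside that range. The stalk proteins Rplp0, Rplp1 and Rplp2, which recruit translation factors, had means of 72.7, 67.2 and 71.0. Rplp0, often used as a reference transcript, read 115.0 in naive, 116.3 in antigen-experienced and 46.7 in effector cells, 56.7 and 51.8 in high_to_high, 77.6, 73.2 and 65.3 in low_to_low, and 60.1, 67.9 and 69.1 in low_to_high. Rpl5 and Rpl11, which bind 5S rRNA and can inhibit Mdm2 when assembly fails, had means of 52.8 and 58.1. Rpl22, needed for development of alpha-beta T cells, had a mean of 82.6, with 128.7 in naive, 137.2 in antigen-experienced and 47.0 in effector cells and 64.6 to 88.1 at day 9.

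Small subunit genes had a median of means of 66.1 over 30 promoters. Rps29 was highest, with 130.3 in naive, 150.6 in antigen-experienced and 66.2 in effector cells, 66.4 and 73.2 in high_to_high, 86.0, 85.4 and 89.2 in low_to_low, and 84.6, 79.6 and 80.1 in low_to_high. It was the highest member in effector cells and in high_to_high replicate 2, where Rpl13a was not. Rps14 had a mean of 82.8. Rpsa, also known as the laminin receptor, read 122.2, 123.6 and 45.9 in the reference libraries and 52.8 to 78.0 at day 9. Rps6, the substrate of the S6 kinases downstream of mTOR, read 107.5 in naive, 102.0 in antigen-experienced and 36.9 in effector cells, 50.7 and 60.5 in high_to_high, 61.0, 75.7 and 64.2 in low_to_low, and 58.8, 60.1 and 51.4 in low_to_high.

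X-linked members were low. Rps4x read 51.0 in naive, 56.0 in antigen-experienced and 15.6 in effector cells, 22.7 and 23.4 in high_to_high, 37.5, 33.4 and 29.2 in low_to_low, and 25.5, 28.2 and 21.1 in low_to_high. It was the lowest member in 8 of the 11 libraries. Means of the 4 X-linked genes (Rpl10, Rpl36a, Rpl39, Rps4x) ran from 31.2 to 44.6, against a median of 61.7 for autosomal members. Over all promoter regions called in every library, those on X had a median of 26.1 and those on autosomes 44.3, so the gap is shared with other X-linked promoters. The labels give no sex of the animals. Of the copies, Rpl34-ps1 had a mean of 12.1 and the binding partner Rps19bp1 41.0.

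**Figure D2:**
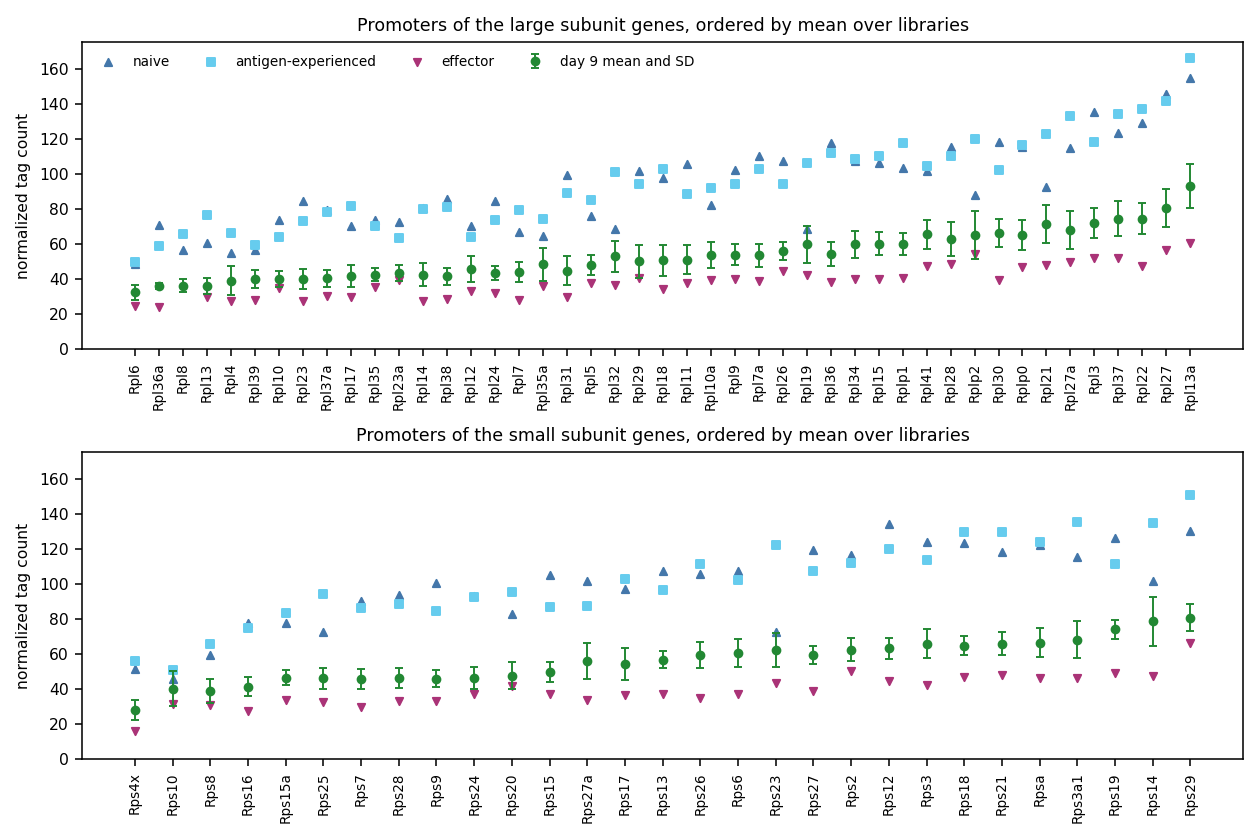
Normalized tag count of canonical promoters, with the large subunit genes above and the small below, ordered by mean over the libraries. Circles and bars are the day 9 mean and SD over 8 libraries (6 for Rpl7 and 7 for Rpl39), triangles and squares the single reference libraries; effector values lie below naive values for each gene shown where both were called.

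How much a promoter varied was measured as the SD of its log2(value + 1) across libraries after each library was centred on its median region. The median SD over all 11 libraries was 0.21 for the member promoters, 0.21 for all promoters and 0.20 for the 4957 promoters with a mean inside the members' range. All regions had 0.25. Over the 8 day 9 libraries it was 0.128 for members, 0.137 for all promoters and 0.127 for those of like level. Members thus varied about as much as other promoters of their level, and no test of a difference was run.

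Single genes spanned a range of SD. Rpl6, Rpl10a, Rpl12 and Rpl41 varied least, with 0.12, 0.14, 0.14 and 0.14 over 11 libraries. The largest were Rpl31 at 0.34, Rps4x at 0.29, Rpl36 at 0.28 and Rps9 at 0.28. Rpl31, which lies near the tunnel exit, read 99.0 in naive, 88.8 in antigen-experienced and 29.8 in effector cells, 28.9 and 49.4 in high_to_high, 48.1, 55.1 and 48.1 in low_to_low, and 47.4, 42.6 and 37.2 in low_to_high. At day 9 the lowest of its 8 values and the second highest were the replicates of 1 group, high_to_high.

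The reference comparisons have 1 library in at least one arm and no test. Differences are log2(value + 1), centred on the median of all regions called in both libraries, which removed shifts of 0.16 for antigen-experienced minus naive, -0.71 for effector minus naive, -0.92 for effector minus antigen-experienced, -0.40 for the day 9 mean minus naive and 0.43 for the day 9 mean minus effector. Naive cells enter 3 of these comparisons and effector cells 3, so the values are given side by side and are not independent.

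Effector minus naive had the centred member median farthest from 0. The median over 76 member promoters was -0.63, with 73 below 0 and 3 above. The median was -0.38 for all 7798 promoters and -0.52 for the 4957 promoters of like level. No member passed 2-fold either way, against 20.7% of all regions called in both, 9.08% of promoters and 4.52% of promoters of like level. The lowest values were those of Rpl31 at -0.99, Rps4x at -0.94 and Rps27 at -0.90. At the top were Rps10 at 0.18, Rpl19 at 0.02, Rplp2 at 0.02 and Rps23 at -0.01. On the deposited scale, without centring, the member median was -1.34, and centred on promoters instead of all regions it was -0.25, so its size depends on what it is set against.

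Antigen-experienced and naive cells lay closer together. The member median was -0.15 over 77 promoters (58 below 0, 19 above), against -0.03 for all promoters and -0.07 for those of like level. Past 2-fold were 0 members, 4.76% of all regions, 1.29% of promoters and 0.182% of promoters of like level. At that last share, 0 is no result about the members. Without centring the member median was 0.02, the opposite sign. For effector minus antigen-experienced it was -0.43 over 76 promoters, against -0.32 for all promoters. Past 2-fold were 0 canonical promoters, 17.7% of regions and 1.67% of promoters of like level. The copy Rpl34-ps1 differed by 1.14 there, from 9.8 to 11.6 on the deposited scale, near the weakest peaks of a list.

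After centring, the day 9 mean lay nearer the effector library than the naive one at these genes, as it did at other promoters. The day 9 mean minus naive had a member median of -0.43 over 74 promoters, against -0.24 for all promoters. There 0 members were past 2-fold, beside 13.5% of regions and 0.403% of promoters of like level. The day 9 mean minus effector had a median of 0.06 over 73 promoters, against 0.06 for all promoters. Again 0 were past 2-fold, beside 9.9% of regions and 0.484% of promoters of like level. At such shares of like-level promoters, 0 is no result about the members. Averaged over the 3 differences from naive, Rps23 at 0.25, Rpl19 at 0.23 and Rps10 at 0.13 were highest, and Rpl31 at -0.68, Rps9 at -0.67 and Rpl23 at -0.64 lowest.

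**Figure D3:**
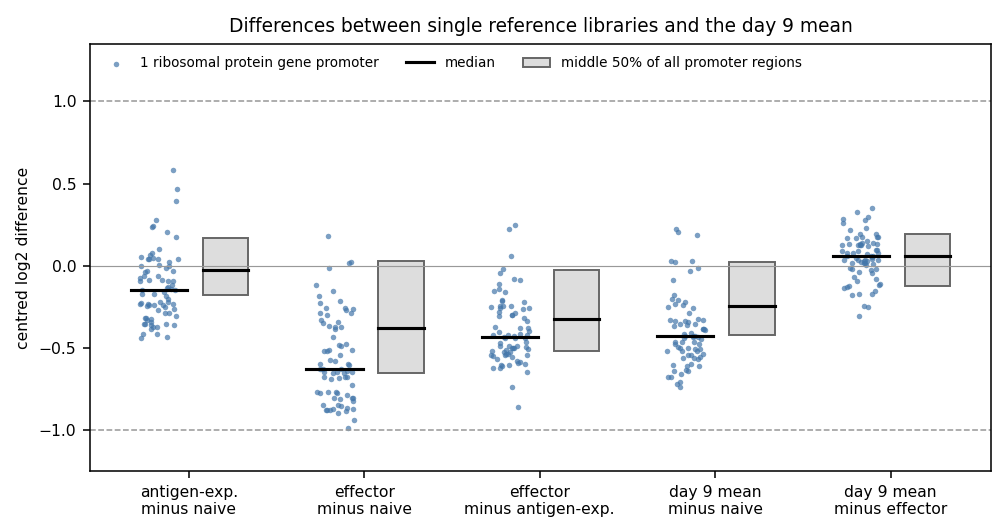
Centred log2 differences of canonical ribosomal protein gene promoters (points, with the median as a bar) in 5 comparisons of single libraries or the day 9 mean; grey boxes show the middle 50% and median of all promoter regions and dashed lines 2-fold. Points reach from -0.99 to 0.58 and none crosses a dashed line.

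Some members with high differences from naive read lower in the libraries of narrower peak windows, and Rps10 did not. In naive and in high_to_high replicate 2, the libraries of narrower windows, Rps23 read 72.4 and 44.1, while antigen-experienced cells and high_to_high replicate 1 read 122.3 and 61.4. Rps23 protein sits in the decoding centre. Rpl19 read 68.2 and 42.4 in the narrow-window libraries and 106.3 and 55.6 in their wider counterparts, and Rpl32 read 68.4 and 37.9 against 101.2 and 53.3. Rplp2 read 87.8 and 42.9 against 119.9 and 69.3. Rps10, also among the highest, read 45.4 and 33.3 against 50.9 and 28.9. Centred on the regions called in all 11 libraries, its wide minus narrow differences were -0.09 and -0.205.

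Of the 73 member promoters, 8 were lower after centring in both narrow-window libraries, against 1304 of all 6825 promoters (19.1%). Across the members, antigen-experienced minus naive and high_to_high replicate 1 minus replicate 2 had a Pearson r of 0.52 and a Spearman rho of 0.36 (n = 73 promoters of 4 libraries, which are not independent replicates). Over all 6825 promoters r was 0.26. The 4 libraries also differ in depth and cells, and the part of the window in these values was not tested. Values per bp of window, which rescale every region of a library alike, moved the median of antigen-experienced minus naive to -0.16.

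**Figure D4:**
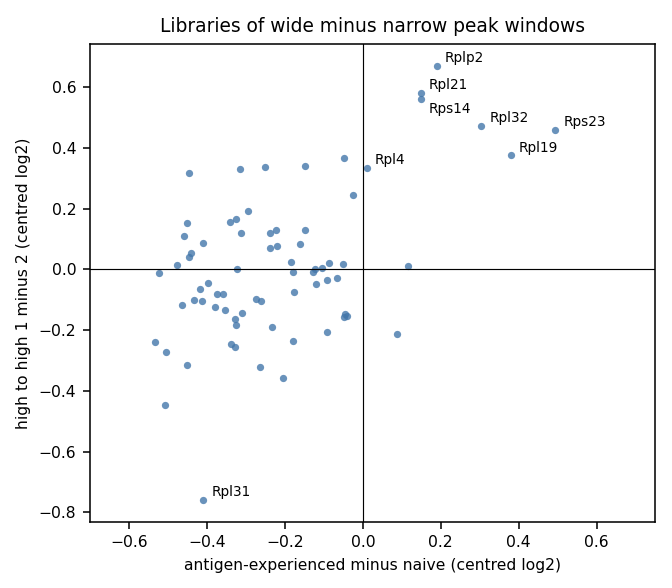
Each point is 1 of 73 canonical promoters, with the centred log2 difference of antigen-experienced minus naive on x and of high_to_high replicate 1 minus replicate 2 on y, so that both axes set a library of wider against one of narrower peak windows. Rps23, Rpl19, Rpl32, Rplp2, Rps14 and Rpl21 lie above 0 on both axes, and Rpl31 lies at -0.76 on y.

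The day 9 groups ask whether cells that are YFP-high at day 9, by either route, differ from YFP-low cells. They were tested with limma over 34383 regions called in all 8 libraries, of which 89 were member regions and 76 of those member promoters (Rpl34-ps1 and Rps19bp1 included). Members gave no call. For YFP-high (5 libraries) against YFP-low (3), 0 of 89 had a Benjamini-Hochberg adjusted p under 0.05, where 0.332% of all regions did. At that background 0 of 89 is no result about the members. An unadjusted p under 0.05 was reached by 3 of 89 (3.37%), against 8.07% of all regions and 5.9% of all promoter regions. Their median log2 difference was 0.002, against -0.05 for all promoters.

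The other comparisons gave the same count. High_to_high against low_to_low had 0 of 89 member regions called where 0.596% of regions were, with 5 at an unadjusted p under 0.05 (5.62%, against 9.92% of all regions) and a median of -0.02, against -0.06 for all promoters. Low_to_high against low_to_low had 0 of 89 called where 0.032% of regions were, with 3 at an unadjusted p under 0.05 (3.37%, against 5.56%) and a median of 0.02. Low_to_high against high_to_high had 0 of 89 called where 0.0% of regions were, with 3 at an unadjusted p under 0.05 (3.37%, against 5.09%) and a median of 0.03. Among all promoter regions, the shares at an unadjusted p under 0.05 in these comparisons were 9.06, 3.52 and 5.43%, in the same order. The replicate block joined all libraries by number, high_to_high included, though high_to_high libraries did not deviate together with those of the same number. With this block, calls over all regions rose from 114 to 213 when YFP-high and YFP-low were compared. They rose from 205 to 374 for high_to_high against low_to_low. For low_to_high they rose from 11 to 55 against low_to_low and from 0 to 4 against high_to_high. Member calls stayed at 0. The 213, 374 and 4 calls thus rest in part on a pairing that the high_to_high libraries did not show. Leaving out low_to_low replicate 2 left 16 calls over all regions in the first comparison.

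Intervals say how large a difference these libraries allow in the fit without a replicate term. The unadjusted 95% interval of each of the 89 member regions stayed inside 2-fold in all 4 comparisons, on the log2(value + 1) scale, as did those of 98.5 to 99.7% of all regions. It stayed inside 1.5-fold for 87 regions in YFP-high against YFP-low, 85 in high_to_high against low_to_low, 88 in low_to_high against low_to_low and 86 in low_to_high against high_to_high. These are 97.8, 95.5, 98.9 and 96.6% of members, beside 98.1, 89.6, 97.0 and 92.6% of all promoter regions and 91.5, 75.1, 87.7 and 80.5% of all regions. Over the 76 member promoters alone the shares were 98.7, 97.4, 98.7 and 98.7%. In YFP-high against YFP-low the share of member promoters was thus close to that of all promoters. Rplp0 differed by -0.02 (95% interval -0.22 to 0.18) between YFP-high and YFP-low, Rps6 by -0.03 (-0.21 to 0.16), Rpsa by -0.05 (-0.24 to 0.14), Rpl22 by 0.00 (-0.19 to 0.20) and Rpl11 by -0.11 (-0.32 to 0.09).

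On the deposited scale, without centring, calls did appear. High_to_high against low_to_low then called 31 of 89 member regions (34.8%), all lower, where 21.6% of all regions were called, and YFP-high against YFP-low called 5 of 89, all lower, where 5.88% were. That scale carries a library-wide shift: its median over all regions was -0.30 and -0.22 in these comparisons, beside member medians of -0.31 and -0.22. Medians of all promoter regions were -0.35 and -0.27. Why members were called more often than all regions in high_to_high against low_to_low was not tested.

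**Figure D5:**
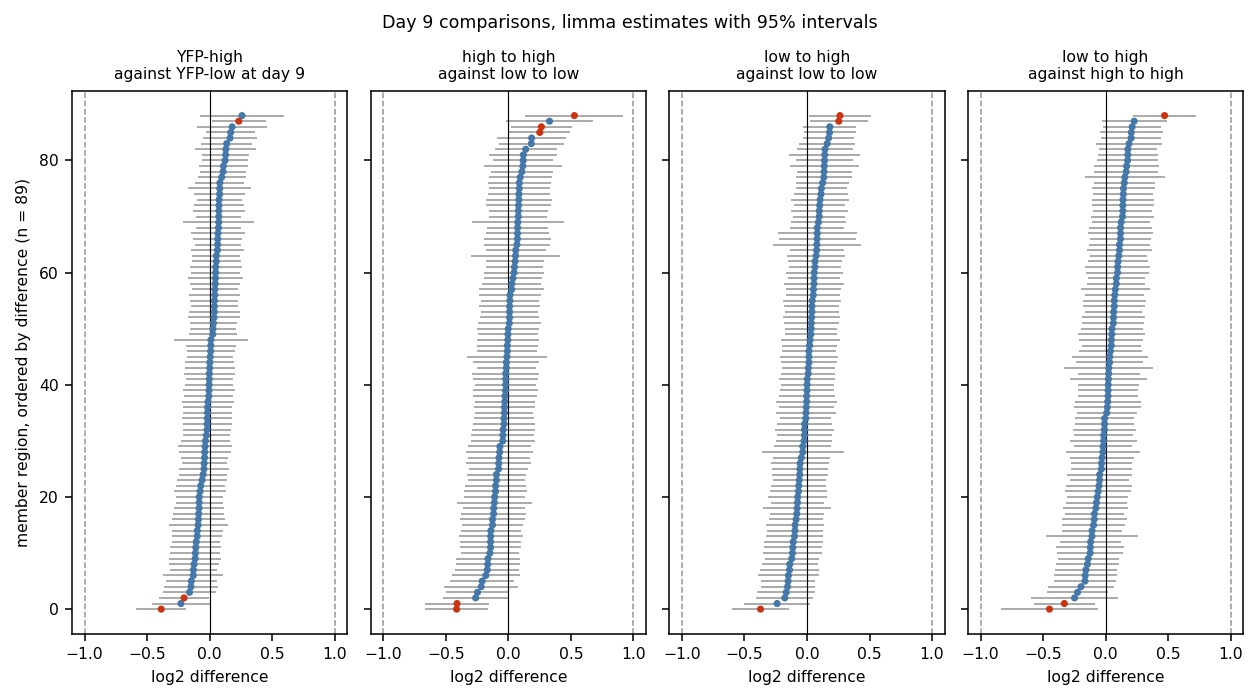
Log2 differences of the 89 member regions in 4 day 9 comparisons (limma, x axis), with 95% intervals as grey lines, ordered by difference on y. Red points have an unadjusted p under 0.05 (3, 5, 3 and 3 regions), none passes the adjusted threshold, and no interval reaches the dashed lines at 2-fold.

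Rps10, a protein near the mRNA entry that is ubiquitinated when ribosomes collide, came closest to a call. Its promoter read 28.9 and 33.3 in high_to_high, 37.1, 36.1 and 31.4 in low_to_high, and 44.7, 55.3 and 53.9 in low_to_low. The YFP-high values lay below all 3 YFP-low values without overlap, on a scale where YFP-low libraries were higher at most regions. Many other members were separated in the same way. Among them were Rpsa (at most 69.1 against at least 70.9), Rps3 (66.9 and 70.7), Rps14 (80.0 and 85.9) and Rpl34 (59.2 and 63.9). The separation is thus not particular to Rps10, and its share over all regions was not counted. After centring, YFP-high minus YFP-low at Rps10 was -0.39 ± 0.10 (SE, 5 against 3 libraries), with a limma adjusted p of 0.0795.

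That estimate did not pass the threshold, and it moved with single libraries and settings. With a pseudocount of 5 it passed, at -0.37 with a limma adjusted p of 0.0492, where 0.428% of all regions did. Without low_to_low replicate 3 it was -0.32 with a limma adjusted p of 0.478. Its sign was negative under each alternative tried. Deposited values had a mean of 51.3 ± 5.76 (SD, n = 3) in YFP-low and of 33.4 ± 3.36 (SD, n = 5) in YFP-high libraries, beside 45.4 in naive, 50.9 in antigen-experienced and 31.1 in effector cells. The Rps10 region at chr17:27635100-27635365 also holds the start of Gm15420.

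Rpl4, which lines the exit tunnel, was lowest in the high_to_high libraries. Its promoter read 30.4 and 23.8 in high_to_high, 43.1, 49.8 and 41.0 in low_to_low, and 40.9, 43.9 and 38.6 in low_to_high. Both high_to_high values lay below the other 6. These are deposited values, and the high_to_high medians over member promoters were the lowest at day 9 (48.4 and 48.4, against 51.4 or more). Many other members had the same order. Rplp0 read 56.7 and 51.8 against 60.1 or more, and Rps3 51.5 and 55.9 against 65.6 or more. Rps2 read 49.6 and 54.6 against 62.9 or more. This order is thus not particular to Rpl4 on the deposited scale, and its share over all regions was not counted. After centring, high_to_high minus low_to_low at Rpl4 was -0.41 ± 0.13 (SE), with a limma adjusted p of 0.152. For low_to_high minus high_to_high it was 0.47 ± 0.13, with a limma adjusted p of 0.923. Without high_to_high replicate 2, the narrow-window library, the first was -0.24 with a limma adjusted p of 0.568 and the second 0.30 with 0.719. Without high_to_high replicate 1 they were -0.58 with a limma adjusted p of 0.0606 and 0.64 with 0.0578. The neighbouring region upstream of Rpl4, at chr9:64172697-64173101, gave 0.03 for high_to_high minus low_to_low. For YFP-high minus YFP-low it gave 0.16, with a limma adjusted p of 0.719. In low_to_high minus low_to_low it was among the 3 lowest p-values of member regions, uncalled. There it ranged from 0.19 to 0.35 when 1 library was left out.

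A few more members had a low unadjusted p. Rpl5 read 49.4 and 50.4 in high_to_high and 42.4, 45.5 and 41.3 in low_to_high, a difference of -0.33 with a limma adjusted p of 0.923. The region inside the copy Rpl37rt read at least 8.84 in both high_to_high libraries against 7.01, 9.2 and 8.59 in low_to_low, a difference of 0.53 with a limma adjusted p of 0.289, at values near the weakest peaks. The region taken for Rpl29, 443 bp inside its span, was -0.21 for YFP-high minus YFP-low with a limma adjusted p of 0.596, and a flanking region of Rps19 at chr7:24890563-24890777 was 0.23 with 0.566. Rps4x, whose deposited YFP-high values (21.1 to 28.2) lay below its YFP-low values (29.2 to 37.5), differed by -0.23 (95% interval -0.46 to 0.00) with a limma adjusted p of 0.618. The deposited scale carries a library-wide shift, and many other members were also separated on it. Examples are Rps23 (at most 61.4 against at least 67.7) and Rpl3 (at most 74.6 against at least 76.7). The share of such regions over the series was not counted. None of the differences given here passed the threshold.

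Lists of genes that act beside the ribosomal proteins gave 1 call at day 9. In YFP-high against YFP-low, 0 of 102 regions of mitochondrial ribosomal protein genes, 0 of 47 of translation factor genes, 0 of 48 of ribosome biogenesis and RNA polymerase I genes, 0 of 34 of mTOR, MYC and S6 kinase genes and 0 of 8 of ribosomal protein paralogs and fusion genes were called, beside 0 of 86 canonical member regions, where 0.332% of all regions were. The only call in these lists over all 4 comparisons was a region of Eif4e, the cap-binding initiation factor, at chr3:138542627-138542998. It was higher in high_to_high than in low_to_low by 0.84 ± 0.20 (SE), with a limma adjusted p of 0.0406, where 0.596% of all regions were called. It was called in 9 of 17 other settings, among them the replicate block. That block set high_to_high beside low_to_low libraries by number, though these did not deviate together. The limma adjusted p ran from 0.00414 (that block) to 0.991 (the percentage of tags in peaks as a covariate, where 0 regions of the series were called). Without low_to_low replicate 2 it was 0.245 and without high_to_high replicate 2 0.271. For effector minus naive, list medians over promoters were -0.47 (mitochondrial), -0.53 (translation factors), -0.51 (biogenesis) and -0.58 (mTOR and MYC), beside -0.64 for the 57 matched canonical members. Lists were chosen with results of these data known, and these counts and medians are descriptions.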

How the data were processed

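Each library's peak list gives, for every peak, the normalized tag count, which is a signal the authors scaled to 10 M (mega) tags. The authors' findPeaks score was used to filter peaks in 1 alternative, and the authors' fold ratio over local background described their threshold only. Peaks were called per library with HOMER 4.10 without a control, per the file headers. The submitters' processing notes also name Bowtie2, DESeq2 and mm10, and do not say what DESeq2 was used for. Peaks overlapping by at least 1 bp were merged across libraries, and the highest value of a library in a region was kept. A member's promoter region is the one over its RefSeq promoter or, for genes not in that table, nearest to an end of its span.

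Day 9 groups were tested with limma 3.58.1 (R 4.3.3, trend) on log2(value + 1), centred per library on the median, over 34383 regions called in all 8 libraries, with Benjamini-Hochberg adjusted p under 0.05 called. The pairwise comparisons share 1 fit of 3 groups. The scripts were tested on simulated data. Single reference libraries got no test, and 2-fold was the fold counted. Depth was 20.84 to 59.97 M tags.

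Members and lists were chosen with earlier results of these data known. Genes were named by a rule: highest and lowest levels, reference differences and SDs, the 3 lowest p-values per day 9 comparison, members with missing or extra regions, and textbook members. Some members are counted in the totals and not reported by name here. Same-numbered low_to_low and low_to_high libraries deviated together (correlations 0.298, 0.136 and 0.161), and high_to_high libraries did not (-0.041 to -0.001). The numbers may thus pair the former, though the labels do not state it. The main fit had no replicate term, and the replicate block took all 8 libraries by number. Alternatives changed centring, pseudocount, filters, merging, covariates and libraries.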

Additional observations from a re-analysis of the deposited data

Results flagged for a closer look

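Of 33 named member promoters checked across the 5 YFP-high libraries, 3 had a library far from the others, by a gap of over 0.71 of the whole range. Chance flags about 1 in 20 groups. The Rpl22 promoter was highest in low_to_high replicate 1 at 81.0, with the next value at 68.8. The Rpl8 promoter was lowest in the same library at 31.5, with the next at 34.7. The Rps23 promoter was lowest in high_to_high replicate 2 at 44.1, with the next at 57.1, and that library has the narrower peak window.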

How the results depend on the processing

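The count of 0 called member regions held in all 4 day 9 comparisons under cyclic loess, a pseudocount of 0.1, each filter and merging setting and the replicate block, and it was 0 to 0 when each replicate was left out. Without centring, YFP-high against YFP-low had 5 calls and 31 were made for high_to_high against low_to_low, which share the library-wide shift, and with a pseudocount of 5 the first comparison called 1. A covariate for the percentage of tags in peaks left 0 calls among all 34383 regions in each comparison, so its 0 says nothing of the members. The replicate block left the member median at 0.01 for YFP-high against YFP-low and at 0.00, 0.02 and 0.04 for the others, and it changed no call of a member while it raised calls over all regions by over 1.5 times. Leaving out 1 replicate gave 16 to 203 calls over all regions for YFP-high against YFP-low, 70 to 315 for high_to_high against low_to_low, 0 to 55 for low_to_high against low_to_low and 0 to 11 for low_to_high against high_to_high. Medians of the reference comparisons moved. Without centring they were 0.016 (antigen-experienced minus naive), -1.34 (effector minus naive), -1.35 (effector minus antigen-experienced), -0.83 (day 9 mean minus naive) and 0.49 (day 9 mean minus effector). Centred on promoters, the last 4 were -0.25, -0.11, -0.185 and 0.00125. With a pseudocount of 5, effector minus naive was -0.70, effector minus antigen-experienced -0.53 and day 9 mean minus effector 0.094. The median SD of member promoters fell to 0.158 without the 2 narrow-window libraries, as that of promoters of like level did, also to 0.158, and that of all promoters to 0.169. Beyond the construction of each alternative, the cause was not tested. A region that a list does not hold may lie below its caller's thresholds, so missing values limit weak regions most.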
